A study of Arabidopsis thaliana with 4 samples.

Results

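Polycomb repressive complex 2 (PRC2) places the repressive mark H3K27me3 on chromatin, and its 8 core subunit genes in Arabidopsis thaliana were followed here by locus identifier among the 37885 genes counted. The libraries are 4 biological replicates of poly(A)-selected RNA from whole seedlings, grown untreated for 7 days under constant light on half-strength agar medium lacking sucrose. All seedlings are prt6-1hyt1-1 double mutants, and the headers of the count columns write hup40 in place of hyt1. The labels do not say which gene either name stands for, and lines of other genotypes were not analysed here, so the data describe levels and variation within the double mutant only. Library totals ranged from 24743656 to 26155431 counts. Because RNA came from whole seedlings, fewer cells of a type and less RNA per cell cannot be told apart.

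PRC2 is built from 4 kinds of subunit, named after their Drosophila counterparts: an Enhancer of zeste (E(z)) methyltransferase, a Suppressor of zeste 12 (Su(z)12) zinc-finger protein, an Extra sex combs (ESC) protein and a p55 histone-binding protein. Arabidopsis has 3 E(z) genes (CLF, SWN and MEA) and 3 Su(z)12 genes (EMF2, VRN2 and FIS2), with FIE as the ESC gene and MSI1 as the p55 gene. Complexes with EMF2 hold back flowering in seedlings, complexes with VRN2 silence the floral repressor FLC after cold, and complexes with MEA and FIS2 act in the endosperm of the seed. VRN2 protein is also a substrate of the N-degron pathway: its cysteine at the second position is exposed, oxidised in the presence of oxygen and read, after arginylation, by the ubiquitin ligase PRT6. In prt6 mutants VRN2 protein is known to be stabilised, and the counts below are of its transcript, not of the protein.

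The coding starts set VRN2 apart from its paralogues, since among EMF2, FIS2 and VRN2 only the longer VRN2 form opens with the Met-Cys start on which the N-degron rests. The first 36 coding bases are printed from RefSeq on TAIR10.1, with the second codon in capitals (TGT and TGC encode cysteine).
VRN2, longer form: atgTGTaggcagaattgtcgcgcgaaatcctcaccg
VRN2, shorter form: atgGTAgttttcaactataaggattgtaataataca
EMF2: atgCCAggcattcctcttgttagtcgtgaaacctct
FIS2: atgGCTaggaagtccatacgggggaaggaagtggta
RAP2.12: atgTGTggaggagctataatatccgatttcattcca
HRE1, longest form: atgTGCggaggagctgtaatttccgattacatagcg
ZPR2: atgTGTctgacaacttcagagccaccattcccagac
These stretches lie at chr4:9476708-9476743 and chr4:9477246-9477281 for VRN2, chr5:20824153-20824188 for EMF2 and chr2:14992721-14992756 for FIS2, all on the plus strand. Those of the other N-degron substrates lie at chr1:20135242-20135277 (plus strand) for RAP2.12, chr1:27241904-27241939 (plus) for HRE1 and chr3:22497407-22497442 (minus) for ZPR2. RAP2.12 and HRE1 are group VII ethylene response factors and ZPR2 is a little zipper protein.

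Among the 8 PRC2 genes, VRN2 alone had a cysteine as the second residue of its longest protein. A Met-Cys start was read in 205 of 27361 annotated proteins, or 0.749%. The annotation holds 2 VRN2 forms, of 440 and 380 residues, and their last 339 residues are identical. The shorter form starts with a valine codon at the second position, so it lacks the Met-Cys start. Gene-level counts add both forms together, and the split between them was not analysed here.

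No PRC2 gene had a near-identical copy among the annotated transcripts. Stretches of read length shared between paralogues were not examined, so separate counting of their reads was not tested. For no member did another annotated transcript reach 98% identity across 90% of the member's length. EMF2 and VRN2 shared 190 identical residues, which is 43.2% of the shorter protein, VRN2 and FIS2 shared 41.4%, and EMF2 and FIS2 26.5%. CLF and SWN shared 50.0% of the shorter protein, SWN and MEA 48.3%, and CLF and MEA 40.6%. A protein search with VRN2, EMF2 or FIS2 found the other Su(z)12 paralogues and AT4G16810, which ends 13815 bases before VRN2 starts on chromosome 4. AT4G16810 had 0 counts in each of the 4 libraries. It was named after its values were seen.

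In transcript level, 6 of the 8 PRC2 genes formed a group between 9.36 and 32.0 TPM, and the seed-stage genes MEA and FIS2 lay near or below the level of 3 counts per library. TPM is a level corrected for both gene length and library size. The median gene past the expression filter was at 13.6 TPM, and the median of the 6 PRC2 genes that passed it was 18.0 TPM. From highest to lowest mean TPM the order was MSI1, FIE, EMF2, SWN, VRN2, CLF, MEA and FIS2. MSI1 stood at percentile 74.5 of the genes past the filter, VRN2 at 53.2 and CLF at 39.4.

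**Figure D1:**
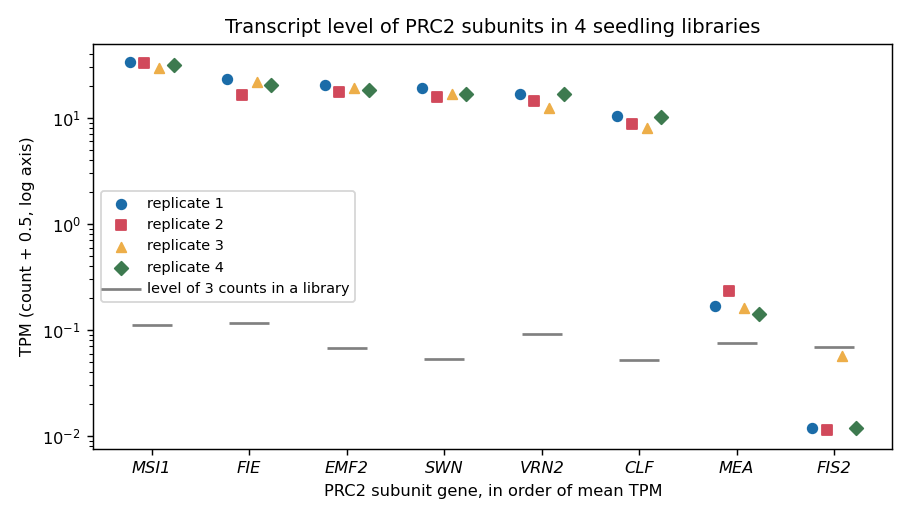
TPM of the 8 PRC2 subunit genes in each of 4 libraries, on a log axis; points are libraries and grey bars mark the level that 3 counts would give. The 6 more abundant genes lie between 8.10 and 33.4 TPM in each library, MEA lies above its 3-count level and FIS2 below it.

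Both catalytic genes of vegetative tissue were expressed, SWN above CLF. CLF (AT2G23380, chromosome 2, 9955092 to 9960386, plus strand, TAIR10.1), a main H3K27 methyltransferase of leaves and flowers, had 580, 518, 476 and 575 counts in replicates 1 to 4. That is 9.36 ± 1.11 TPM (SD, n = 4). SWN (AT4G02020, chromosome 4, 886580 to 891987, plus strand), which overlaps with CLF in function, had 1043, 914, 955 and 927 counts, or 17.2 ± 1.44 TPM. The lowest SWN library was above the highest CLF library. The log2 TPM ratio of SWN to CLF was 0.89 ± 0.13, or 1.85-fold, with SWN higher in 4 of 4 libraries.

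MEA (AT1G02580, chromosome 1, 544733 to 549202, plus strand), the imprinted methyltransferase gene of the endosperm, had 6, 9, 6 and 5 counts. Its level was 0.176 ± 0.0397 TPM, and it did not pass the expression filter. Summed over libraries, its 26 counts have an exact Poisson 95% interval of 17.0 to 38.1, which covers counting error only. Per length, CLF exceeded it 56.8-fold over the pooled counts, with a counting interval of 38.6 to 87.1. Of the summed E(z) TPM, SWN held 64.4% ± 2.01, CLF 34.9% ± 2.04 and MEA 0.666% ± 0.187.

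Among the Su(z)12 genes, EMF2 exceeded VRN2 by a mean of 1.26-fold, and FIS2 was at the detection limit. EMF2 (AT5G51230, chromosome 5, 20823644 to 20829644, plus strand), the subunit that represses flowering in seedlings, had 886, 800, 859 and 792 counts, or 18.8 ± 1.32 TPM. VRN2 (AT4G16845, chromosome 4, 9476069 to 9479878, plus strand) had 526, 481, 409 and 530 counts, with TPM of 16.8, 14.5, 12.4 and 16.7. EMF2 exceeded VRN2 in each library, by 0.30, 0.28, 0.62 and 0.12 in log2 TPM, with the widest gap in replicate 3. The mean of this difference was 0.33 ± 0.21, and the lowest EMF2 library was above the highest VRN2 library.

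VRN2 held 44.9%, 45.2%, 39.4% and 47.8% of the summed Su(z)12 TPM in replicates 1 to 4, a mean of 44.3% ± 3.52, and EMF2 held 55.6% ± 3.45. FIS2 (AT2G35670, chromosome 2, 14992565 to 14996756, plus strand), which pairs with MEA in the endosperm, had 2 counts in replicate 3 and 0 in the others. A count of 0 allows up to 3 counts per library, or 0.0698 TPM for FIS2. Over the pooled counts per length VRN2 exceeded FIS2 1292-fold, with a counting interval of 357 to 10679 that is wide because FIS2 had 2 counts in all.

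**Figure D2:**
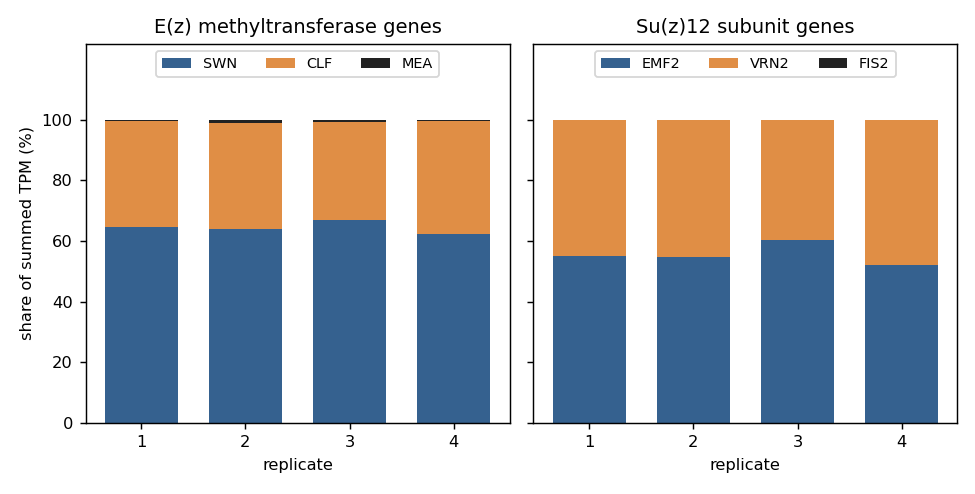
Share of summed TPM (%) taken by each E(z) gene (left) and each Su(z)12 gene (right) in replicates 1 to 4. SWN is the larger part of the E(z) bars, VRN2 takes from 39.4% to 47.8% of the Su(z)12 bars, and MEA and FIS2 are barely visible.

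The subunits without a core paralogue were the most abundant of the 8 by mean TPM. FIE (AT3G20740, chromosome 3, 7248809 to 7252452, minus strand), the ESC subunit of Arabidopsis PRC2, had 583, 434, 577 and 510 counts. That is 20.6 ± 3.03 TPM, with its lowest value in replicate 2. MSI1 (AT5G58230, chromosome 5, 23556012 to 23558245, plus strand) also serves in chromatin assembly outside PRC2. It had 864, 908, 807 and 833 counts, or 32.0 ± 1.71 TPM. By role, the summed TPM was 33.9 ± 2.77 for Su(z)12, 32.0 ± 1.71 for p55, 26.8 ± 2.33 for E(z) and 20.6 ± 3.03 for ESC.

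Not every step in the order of levels was clear of the spread between libraries. The ranges of FIE and EMF2, of EMF2 and SWN, and of SWN and VRN2 overlapped, while MSI1 lay above FIE, VRN2 above CLF, and CLF above MEA in every library. FIE was above EMF2 in 3 of 4 libraries, at a mean log2 TPM ratio of 0.12 ± 0.14, and below it in replicate 2. EMF2 exceeded SWN by only 0.13 ± 0.04 and SWN exceeded VRN2 by 0.20 ± 0.18, in 4 of 4 libraries each. Of all 28 pairs of members, 27 had 1 sign in all 4 libraries and 5 had overlapping ranges. The exact two-sided sign-flip test gave p = 0.125 for those 27 pairs (adjusted p 0.130 over 28 pairs), the smallest p that 4 libraries allow, and p = 0.25 for FIE against EMF2. Without correction for length, 6 of the 21 ratios recomputed changed sign, with FIE falling below EMF2, SWN and CLF.

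Between the libraries, 5 of the 6 PRC2 genes that could be tested varied by more than counting error. The chi-square test of homogeneity, adjusted by the Benjamini-Hochberg method over all genes tested, called 42.7% of 20687 genes, and 41.5% of the genes whose mean CPM lay within the range of these 6. CPM is a level corrected for library size alone. The call was made for FIE (adjusted p 3.61e-06), VRN2 (0.000394), CLF (0.00320), SWN (0.00519) and EMF2 (0.0334), and not for MSI1 (0.225). MEA and FIS2 had too few counts to be tested. The sizes behind these calls were small, and each of the 5 calls was lost without at least 1 of the libraries. The highest library exceeded the lowest by 1.39-fold in CPM for FIE, 1.31-fold for VRN2, 1.24-fold for CLF, 1.18-fold for SWN, 1.15-fold for EMF2 and 1.10-fold for MSI1. Without replicate 1 the calls of SWN (adjusted p 0.541) and EMF2 (0.274) were lost, and without replicate 2 those of EMF2 (0.0862) and FIE (0.0918). Without replicate 3 the calls of VRN2 (adjusted p 0.165) and CLF (0.0780) were lost. Each of these omissions left 3 calls, and leaving out replicate 4 left 5.

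The biological coefficient of variation (BCV) is edgeR's estimate of spread beyond counting error. Each gene's value is drawn toward the trend of genes of the same abundance, so it is not the gene's own spread alone. The BCV was 0.0927 for FIE, beside a trend of 0.0739. It was 0.0871 for VRN2 beside 0.0769, 0.0781 for CLF beside 0.0731 and 0.0625 for SWN beside 0.0617. EMF2, at 0.0614, and MSI1, at 0.0573, lay below their trends of 0.0630 and 0.0627. Thus 4 of 6 members were above the trend, beside 34.1% of all genes past the filter.

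**Figure D3:**
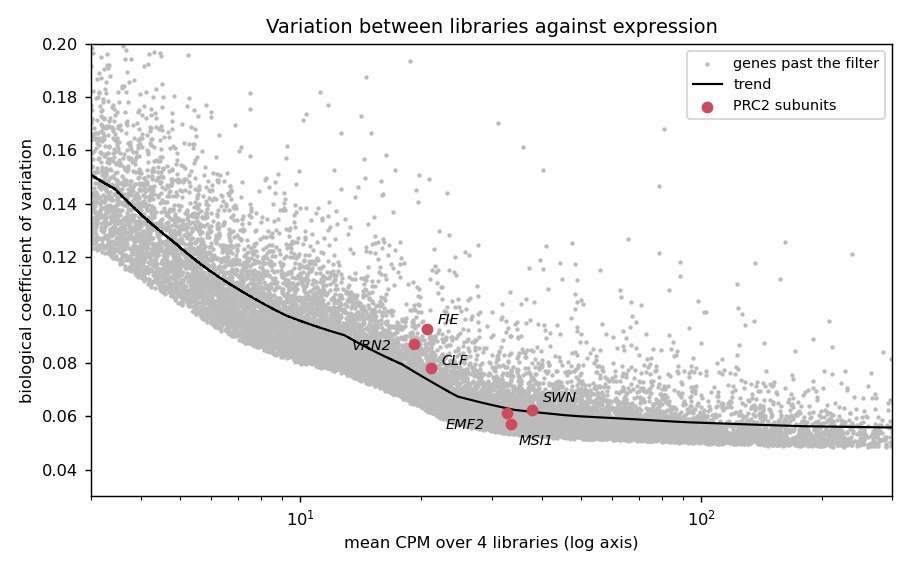
BCV between libraries against mean CPM (log axis) for genes past the filter (grey), with the trend (line) and the 6 PRC2 genes that passed (red); the axes leave out genes beyond their limits. FIE and VRN2, at 0.0927 and 0.0871, are the members farthest above the trend.

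The libraries were not ordered alike for all subunits. Replicate 1 held the highest CPM of 5 of the 6 genes, and MSI1 was highest in replicate 2; of all genes past the filter, 29% were highest in replicate 1 and 22.6% in replicate 2. The lowest value was in replicate 3 for VRN2, CLF and MSI1 and in replicate 2 for SWN, EMF2 and FIE, beside 26.1% and 23.1% of all genes past the filter. VRN2 deviated from its mean log2 CPM by 0.15, -0.04, -0.25 and 0.14 in replicates 1 to 4, and CLF by 0.14, -0.08, -0.17 and 0.11. Their log2 TPM ratio stayed between 0.61 and 0.73, with an SD of 0.05, beside 0.04 for the ratio of EMF2 to SWN. FIE went another way, at 0.18, -0.30, 0.14 and -0.03, low in replicate 2 and high in replicate 3.

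**Figure D4:**
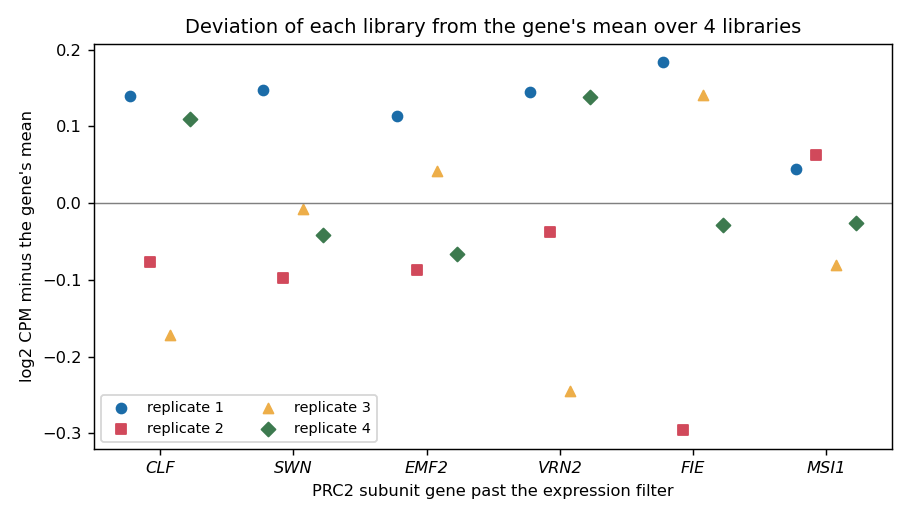
Deviation of log2 CPM in each library from the gene's mean over 4 libraries, for the 6 PRC2 genes past the filter. VRN2 and CLF are lowest in replicate 3, at -0.25 and -0.17, while FIE is lowest in replicate 2, at -0.30.

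Markers of dividing cells, in which PRC2 genes are known to be expressed, were highest in sum in replicate 1 as well. The summed CPM of the 7 markers was 149, 128, 132 and 136 in replicates 1 to 4. By CPM, 4 of the 7 were highest in replicate 1, beside 29% of all genes past the filter. Of the others, 1 was highest in replicate 3 and 2 in replicate 4. All 7 passed the filter, from CYCB1;1, a mitotic cyclin, at 7.78 TPM to KN, the syntaxin of the cell plate, at 50.8 TPM. KN had 1236, 1084, 1108 and 1181 counts, CYCB1;2 had 742, 617, 674 and 613 and the kinase gene CDKB2;1 had 619, 569, 530 and 539. CYCB1;1, with 212, 180, 222 and 215 counts, was the marker highest in replicate 3. The chi-square call was made for KN, CYCB1;2 and CDKB2;1, which is 3 of the 7 beside 42.7% of all genes tested, and for 0 of them without replicate 1. KN overlaps AT1G08550 by 464 bases on the other strand. The part of dividing cells in the variation of the PRC2 genes was not tested.

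Seed transcripts stood high in replicate 2, while the seed-stage PRC2 genes did not rise there by more than a few counts. The 10 seed storage markers summed to 7.09, 164, 4.48 and 4.51 CPM in replicates 1 to 4. The 12S cruciferin gene CRA1 had 159, 1394, 86 and 102 counts, and the 2S albumin genes SESA1 and SESA5 had 403 and 460 counts in replicate 2 and at most 1 elsewhere. CRU2, the lowest storage marker by mean TPM, had 1, 61, 0 and 0 counts. In replicate 2 MEA had 9 counts and FIS2 had 0. Of the 3 endosperm markers, EPR1, an extensin gene, had 6, 132, 14 and 13 counts, AGL62, a MADS factor of early endosperm, had 6, 5, 18 and 12, and FWA, an imprinted homeobox gene, had 1, 1, 3 and 1. FIE, the lowest of its libraries in replicate 2, had 434 counts there, and the part of seed material in that value was not tested.

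The VEL family held both expressed genes and genes near 0 counts. In this family of PHD-finger proteins that join PRC2 at FLC, VEL1 was at 42.1 ± 1.84 TPM and VRN5 at 11.2 ± 1.35 TPM. VIN3, which is known to be induced by prolonged cold, had 1 count in all, in replicate 2. VEL2 had 4 counts in all and VEL3 had 2. Both genes tested, VEL1 and VRN5, had the chi-square call (adjusted p 0.0107 and 0.00575), beside 42.7% of all genes tested. VEL1 lost the call without replicate 3 (0.294) and VRN5 without replicate 1 (0.160).

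The 4 relatives of MSI1 all passed the filter. FVE, which acts in the autonomous flowering pathway, was at 42.6 ± 2.79 TPM, above MSI1, and MSI2 was at 25.0 ± 0.814 TPM. MSI3 was at 18.1 ± 0.486 TPM and MSI5 at 5.75 ± 0.807 TPM. MSI2 and MSI3 share 82.4% of the residues of the shorter protein, and FVE and MSI5 78.6%. FVE had the chi-square call (adjusted p 0.00281), lost without replicate 1 (0.0973), and MSI2, with 650, 648, 650 and 656 counts, did not (0.906). The call was made for 1 of the 4, beside 42.7% of all genes tested.

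Of 9 readers and PRC1 components, 8 passed the filter and 5 had the chi-square call, beside 42.7% of all genes tested. Without replicate 1 the call was made for 2 of them, and without replicate 3 for 3. SHL and EBS, readers of histone marks, were at 49.98 and 18.7 TPM, and LHP1, the chromodomain reader of H3K27me3, was at 12.7 ± 0.959 TPM. The ubiquitin ligase gene BMI1B, with 233, 169, 221 and 206 counts, had the largest excess of BCV above its trend in the list as a difference (0.110 beside 0.102), and BMI1C had 16 counts in all. Among 10 recruiting factors and partners, all past the filter and 4 with the call beside 42.7% of all genes, the highest were BPC6, a GAGA-binding factor, at 35.6 TPM, VRN1 at 24.5 TPM and TRB1, a telobox-binding factor, at 24.3 TPM. PWO1 was the lowest at 4.93 TPM, and TRB2 had 509, 454, 417 and 500 counts. Without replicate 2 or replicate 3 the 4 calls went to 1.

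Enzymes that remove H3K27me3 were transcribed beside PRC2. All 5 demethylase genes passed the filter, with JMJ30 at 38.2 ± 1.32 TPM, REF6 at 9.66 ± 0.792 TPM and ELF6 at 8.82 ± 0.772 TPM. JMJ13 was at 6.26 TPM and JMJ32 at 1.73 TPM. REF6 and ELF6 had the chi-square call (adjusted p 0.0360 and 0.0253) and JMJ13, JMJ30 and JMJ32 did not (0.873, 0.351 and 0.470). That is 2 of 5, beside 42.7% of all genes tested. Without replicate 1 both calls were lost (REF6 0.294, ELF6 0.844), and without replicate 3 that of REF6 (0.297). REF6 was lowest in replicate 3, at 696 counts, as were VRN2, CLF and 26.1% of all genes past the filter.

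Genes known as targets of PRC2 repression all lay below 13.6 TPM, the median gene past the filter, and the highest were FLC, KNAT1, KNAT6 and PI. The list medians over all members were -0.03 in log2 TPM for 6 flowering-time genes, -2.73 for 11 flower-organ genes, 1.52 for 5 meristem genes and -2.99 for 7 embryo and seed genes. The median over all genes in the table was 0.50, and that of the 8 PRC2 genes was 4.01. The libraries hold no chromatin data, so these levels do not show which of the genes carried H3K27me3.

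FLC, the target of VRN2 after cold, was the highest flowering-time gene, with 186, 192, 189 and 177 counts and 9.64 ± 0.242 TPM. Variation of its counts beyond counting error was not detected (adjusted p 0.938). The antisense lncRNA gene AT5G01675 covers all 6067 bases of FLC and had 2 counts in replicate 1 and 0 in the others. Since the strand setting of the counting is not given, sense and antisense reads at FLC cannot be told apart. Its relatives MAF4 and MAF5 had 54, 86, 102 and 98 counts and 6, 15, 33 and 26 counts, lowest in replicate 1, and both had the call (adjusted p 0.00486 and 0.000595). Without replicate 1 both calls were lost (0.541 and 0.0905). In this list 2 of the 5 genes tested had the call, beside 42.7% of all genes tested. The florigen gene TSF was the lowest of the list, with 9, 3, 11 and 11 counts. Of the flower-organ genes, PI had 100, 162, 159 and 121 counts, SEP3 80, 113, 88 and 75, SEP1 12, 11, 16 and 9, and STK had 0 in each library.

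Among the meristem genes, KNAT1 was at 8.70 ± 0.585 TPM, KNAT6 at 8.38 ± 0.593 TPM and STM, the KNOX factor of the shoot apex, at 2.88 ± 0.630 TPM, with 90, 59, 76 and 93 counts. WUS had 0 counts in each library. In the embryo and seed list the highest was ABI3, a regulator of seed maturation, with 15, 33, 34 and 15 counts. BBM, a promoter of embryo and root stem cell identity, had 9, 11, 8 and 30, and DOG1, the dormancy gene, had 4, 5, 14 and 15. PHE1, which FIS complexes repress in the endosperm, had 1 count in all.

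**Figure D5:**
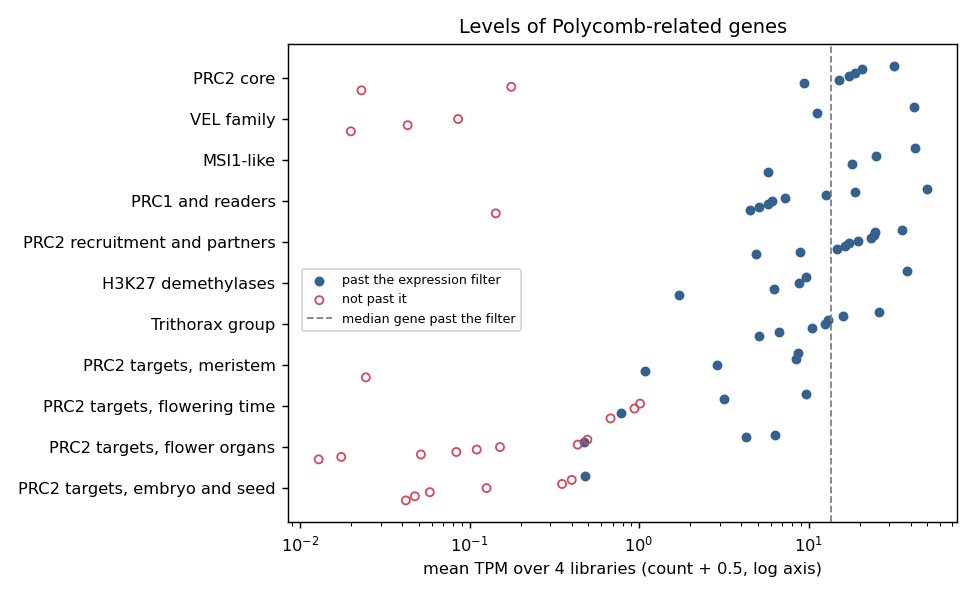
Mean TPM (log axis) over 4 libraries of each gene in the Polycomb-related lists; filled points passed the expression filter, open points did not, and the dashed line is the median gene past the filter, at 13.6 TPM. The 6 PRC2 genes past the filter lie between 9.36 and 32.0 TPM, and every gene of the target lists lies below the dashed line.

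Beside the other N-degron substrates, VRN2 transcript was of middle level. RAP2.3, RAP2.2 and RAP2.12, the constitutive group VII factors, were at 104, 96.9 and 85.7 TPM, above the 15.1 ± 2.09 TPM of VRN2. ZPR2 was the lowest at 1.02 TPM. Replicate 1, where VRN2 was highest, held the lowest count of RAP2.3 (1826 beside 2148 to 2507 elsewhere). RAP2.2, RAP2.12 and HRE1 were lowest there as well, which makes 4 of the 6 genes of the list past the filter. The share of all genes lowest in replicate 1 is not given here.

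The genes nearest to VRN2 and to CLF in level and pattern were found by the root mean square difference of log2 TPM over the 4 libraries. For VRN2 these were AT2G28150, AT5G38360 and AT5G28630, at differences of 0.0450, 0.0471 and 0.0475. The nearest PRC2 gene to VRN2 by this difference, which counts level as well as pattern, was SWN, at 0.251. CLF was at 0.687, although its log2 TPM ratio to VRN2 varied less between libraries (SD 0.05, beside 0.18 for SWN). For CLF the nearest were the receptor kinase gene SERK4 (0.0457), AT4G15450 (0.0515) and CPL3 (0.0522).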

How the data were processed

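The authors deposited 1 table of raw read counts per gene with 1 column per library. Per the submitters' processing notes, HISAT2 2.1.0, featureCounts 1.6.0 and TAIR10 were used. How strand and multi-mapping reads were treated, and the annotation release, is not given in the sources used here, so antisense and overlapping genes may share reads. The title of replicate 4 exchanges 2 characters of the genotype, read as a misprint. Each column was matched to its sample through prt6-1 and its replicate number.

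Gene models came from RefSeq TAIR10.1, matched by locus (37882 of 37885 genes; 3 had none). TPM was computed from the count plus 0.5 over merged exon length, and CPM with TMM library sizes (edgeR 4.0.16, R 4.3.3). The filter was edgeR's filterByExpr (19940 genes). Homogeneity over libraries was tested by chi-square wherever each library was expected to hold 10 or more counts, and BCV came from an intercept-only edgeR model. Both steps were tried on simulated data, with larger changes and a larger BCV than those of the PRC2 genes. That trial does not show how often changes as small as theirs are found. Proteins were translated from the annotated coding sequence, aligned with Biopython 1.88 and searched with BLAST 2.17.0. Other settings were DESeq2 1.42.0 size factors and dispersions, other minimums, lengths and pseudocounts, and each replicate left out.

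The 8 members and 14 other lists were chosen with earlier results of these data known. For the 14 other lists, the share of all genes set beside the calls was not matched for abundance. Named were the members, all VEL, MSI1-like and demethylase genes, the 3 highest, the lowest and the most variable (largest BCV minus trend) of every other list, and the 3 genes nearest VRN2 and CLF. The labels call the libraries biological replicates without naming separate cultures, so p-values measure the spread between these samples only. Intervals cover counting error only.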

Additional observations from a re-analysis of the deposited data

Results flagged for a closer look

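In these results a library stood far from the other 3, measured as its gap to the nearest library over the whole range. For normally distributed values chance gives this for about 1 in 20 groups of libraries. The number of groups looked at is not given here, so the flags cannot be set against that rate. The gap was 1 for FIS2, VIN3, VEL3 and PHE1, which had counts in a single library and at most 2 there; a single library with counts gives 1 by construction, so that rate does not apply to them. FWA, with 1, 1, 3 and 1 counts, had 0.982. Its tied counts bring the gap close to 1 by construction, so the rate does not apply to it either. Replicate 2 stood high for the storage genes CRA1 (0.941), CRU2 (0.983), SESA1 (0.997) and SESA5 (0.998), for the summed storage markers (0.984) and for EPR1 (0.936). It stood low for CYCB1;1 (0.869) and for the summed CPM of the PRC2 recruiting factors and partners (0.984), at 212 beside 229 in each of the other libraries. FLC stood low in replicate 4 (0.910), at 177 counts beside 186 to 192, and BBM stood high there (0.874).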

How the results depend on the processing

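The number of genes called by chi-square was 8828 with all libraries and 5490 to 7387 when each replicate was left out. The number of PRC2 genes called was 5 and went to 3 to 5, with fewer samples in the test. With other size factors or minimums the calls of all 6 tested members were the same. Ratios were recomputed for the 21 pairs without FIS2, which has too few counts. Without correction for length 6 of them changed sign, and in each of the 6 the gene with the lower TPM is the longer gene. In log2, FIE to EMF2 became -0.67, FIE to SWN -0.88, FIE to CLF -0.036, MSI1 to SWN -0.17, EMF2 to SWN -0.20 and VRN2 to CLF -0.15. The other 15 kept their sign without length, all 21 kept it under every pseudocount and length tried and without each replicate, and the shares of CLF, SWN, MEA, EMF2 and VRN2 moved by less than their SD under those pseudocounts, lengths and omissions. With coding length the TPM of every member but FIS2 moved by more than its SD, for instance to 12.6 for VRN2 and 6.80 for CLF. DESeq2's dispersion moved no member's BCV by more than 1.5 times. MEA and FIS2 are limited by depth. No paired analysis was possible because all libraries belong to a single group.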

Other observations

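Trithorax-group genes, which keep genes active and oppose Polycomb repression, were all past the filter. The chi-square call was made for 6 of 7 beside 42.7% of all genes tested, a share not matched to the abundance of this list. Without replicate 1 the call was made for 3 of 7, with PKL (adjusted p 0.162) and BRM (0.554) among those that lost it. PKL and SYD, both chromatin remodellers, had 2189, 1984, 1810 and 1899 counts and 2128, 2039, 1709 and 1748 counts (adjusted p 2.82e-09 and 5.13e-14). The remodeller gene BRM was at 15.9 ± 1.07 TPM, the H3K4 methyltransferase gene ATX2 at 13.0 ± 1.58 TPM, and ATX1 was the lowest at 5.09 TPM. The summed CPM of the list was 374, 336, 315 and 319 in replicates 1 to 4, and 6 of 7 genes were highest in replicate 1, as were 5 of the 6 PRC2 genes past the filter and 29% of all genes past it.

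Several PRC2 genes overlap a neighbour on the other strand, named here after their values were seen. The 3' end of FIE overlaps AT3G20730 by 70 bases. AT3G20730 had 40, 68, 24 and 36 counts and was highest in replicate 2, where FIE was lowest. FIE also overlaps the lncRNA gene AT3G04025 by 210 bases, and that gene had 0 counts in each library. MSI1 overlaps FHIT (AT5G58240) by 132 bases, and that gene had 618, 681, 607 and 572 counts, highest in replicate 2 as MSI1 was. CLF overlaps AT2G23370 by 58 bases and AT2G23390 by 22 bases. These neighbours had 279, 291, 294 and 283 counts and 1550, 1489, 1515 and 1574 counts, and neither was lowest in replicate 3 as CLF was. FIS2, with 2 counts in all, overlaps AT2G35680 by 44 bases, which had 2094 to 2236 counts per library. The part of shared reads in these values was not tested.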
